A study of Mus musculus with 288 samples.

Results

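The genes described here are the 10 that encode the enzymes and regulators of de novo lipogenesis, the making of fatty acids from carbohydrate carbon: Acly, Me1, Acaca, Acacb, Fasn, Elovl6, Scd1, Scd2, Srebf1 and Thrsp. They were taken by name, and all 10 were found among the 35904 genes listed in the expression tables. The animals were wild type C57BL/6J males, 8 weeks of age, and no allele, transgene or drug set the groups apart. One group breathed room air (normoxia) and the other intermittent hypoxia (IH) for 7 days, with oxygen cycling between 21 and 8% in the light phase, when mice rest. Both groups were then moved to 2 days of darkness in room air and were sampled on the second of these days, so that every library comes from an animal that had already left the exposure. Liver, kidney, heart, muscle, lung and cerebellum were each taken at 8 time points, labelled 1:30 to 22:30 and 3 hours apart, with 3 libraries per time point and condition. This gives 24 normoxia and 24 IH libraries in each of the 6 tissues. The 3 libraries of a time point carry the numbers 1, 2 and 3, and the labels give neither what a number stands for nor which libraries of different tissues came from the same mouse.

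In lipogenesis, citrate that has left the mitochondrion is split by ATP citrate lyase to give acetyl-CoA, acetyl-CoA carboxylase turns this into malonyl-CoA, and fatty acid synthase joins these units into palmitate with the reducing power of NADPH. The pathway is most active in liver and fat, where feeding and insulin raise the transcription of its genes through SREBP-1c, ChREBP and their partners, and in lung it supplies the lipid of surfactant. In muscle and heart the malonyl-CoA made at the mitochondrial surface acts mainly as a brake on fatty acid burning.

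Levels are given as TPM, the share of a transcript among all transcripts of the library, a measure scaled for transcript length, so that levels of different genes can be set side by side. Totals per library lay between 989211 and 999188 TPM, and since the tables hold no counts the sequencing depth behind a value is unknown. Differences between IH and normoxia are log2 differences of scaled TPM with 0.5 added, so that the change of a low gene is understated. A gene is said to have changed, and is counted as called, where the adjusted p was at most 0.05 (limma, Benjamini-Hochberg adjustment over all genes tested in the tissue) and the difference was at least 1.5-fold. Such p-values measure the spread between these libraries. In bulk tissue, fewer cells of one type and less RNA per cell cannot be told apart. The marker genes of each tissue were present in it, with 1 exception that touches the results below. The IH liver library numbered 2 at 13:30 held 936 TPM of 6 hepatocyte markers in sum, against 41631 to 81907 TPM in the normoxia livers, together with 5512 TPM of heart markers and 632361 TPM of the single gene Gm19220. One IH cerebellum library, number 3 at 1:30, held 6199 TPM of heart markers and 452062 TPM of Gm19220. High Gm19220 was not confined to these 2 libraries. It took 113363 to 365000 TPM in 9 kidney libraries, 123974 to 452062 TPM in 7 cerebellum libraries and 319921 TPM in 1 muscle library. TPM are shares, so other genes read lower in such libraries on the deposited scale. Libraries also differed in how many genes had a value above 0. This number averaged 22694 in normoxia lung and 25455 in IH lung, and 25124 in normoxia heart and 21447 in IH heart.

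The promoter sequences of 4 of the genes are shown because their transcripts carry the results below: Fasn, Acly and Me1 were all lower in the liver after IH, and Thrsp had the widest daily swing. Each window holds the 250 bases before and the 50 bases after a transcription start site, as given by RefSeq for GRCm38.p6, written 5′ to 3′ on the strand of the gene. Windows of this kind were found for 8 of the 10 genes. Capitals mark matches on either strand to CCAAT, the box bound by NF-Y, and to GGGCGG, the box bound by Sp1. The Fasn window is chr11:120824498-120824797 on the minus strand, the Acly window chr11:100527951-100528250 on the minus strand, the Me1 window chr9:86695865-86696164 on the minus strand and the Thrsp window chr7:97417501-97417800 on the minus strand.
Fasn: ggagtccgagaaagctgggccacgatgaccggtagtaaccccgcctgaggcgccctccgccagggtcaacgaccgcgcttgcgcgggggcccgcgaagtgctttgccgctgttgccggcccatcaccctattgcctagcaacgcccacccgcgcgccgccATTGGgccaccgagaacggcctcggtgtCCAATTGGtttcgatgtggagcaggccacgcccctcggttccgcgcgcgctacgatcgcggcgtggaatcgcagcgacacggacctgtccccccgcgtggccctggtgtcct
Acly: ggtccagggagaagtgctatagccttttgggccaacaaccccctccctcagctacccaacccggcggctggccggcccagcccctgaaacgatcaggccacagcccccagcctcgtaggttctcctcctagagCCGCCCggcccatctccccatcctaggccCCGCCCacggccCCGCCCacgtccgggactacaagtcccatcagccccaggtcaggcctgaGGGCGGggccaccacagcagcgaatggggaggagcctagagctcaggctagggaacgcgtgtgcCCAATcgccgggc
Me1: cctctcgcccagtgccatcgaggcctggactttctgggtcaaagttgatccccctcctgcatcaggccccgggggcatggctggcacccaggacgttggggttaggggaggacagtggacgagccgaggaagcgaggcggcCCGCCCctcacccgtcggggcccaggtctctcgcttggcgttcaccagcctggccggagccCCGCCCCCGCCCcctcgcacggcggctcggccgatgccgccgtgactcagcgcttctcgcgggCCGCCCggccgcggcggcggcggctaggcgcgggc
Thrsp: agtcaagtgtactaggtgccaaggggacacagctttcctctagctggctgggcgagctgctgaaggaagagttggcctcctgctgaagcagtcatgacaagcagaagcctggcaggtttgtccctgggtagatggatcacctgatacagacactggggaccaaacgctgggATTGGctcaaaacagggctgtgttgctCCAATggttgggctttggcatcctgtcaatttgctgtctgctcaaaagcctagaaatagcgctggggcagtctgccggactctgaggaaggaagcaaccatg
The Fasn window held 3 NF-Y matches, which began 90, 62 and 59 bases before the start site, so that the last 2 overlap. Acly had 4 Sp1 matches and 1 NF-Y match, the Me1 window shown had 4 Sp1 matches, and Thrsp had 2 NF-Y matches. These boxes are common, since CCAAT stood in 37.4% and GGGCGG in 35.7% of the 32851 windows of all genes. A sterol regulatory element written as TCACNCCAC stood in 1.24% of all windows, an E-box written as CACGTG in 7.15% and a D-box written as TTATGNAA in 3.38%, and these letters were in none of the windows of the 8 genes. Fasn lies on chromosome 11 from 120805846 to 120824547 (GRCm38, minus strand), and Acly, Acaca and Srebf1 lie on the same chromosome, at 100476353 to 100528000, at 84129672 to 84401651 and at 60199089 to 60222581. Scd1 and Scd2 are neighbours on chromosome 19, at 44394455 to 44407879 and 44293674 to 44306864. They are close paralogues, so that the share of reads given to each by transcript estimation is less certain than their sum.

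In normoxia the 10 genes were spread over the 6 tissues in different orders. Of the 50 steps between tissues that stood next to each other in a gene's order of mean levels, 37 passed a permutation test on the log2 values (two-sided, 100000 resamples, adjusted over the 50). Among the genes that supply carbon and NADPH, Acly, the citrate lyase, was highest in muscle at 112.0 ± 52.8 TPM (SD, n = 24) and lung at 104 ± 31.9 TPM, which did not differ (permutation test, adjusted p = 0.97), and lowest in heart at 25.1 ± 17.5 TPM. Me1, the cytosolic malic enzyme that makes NADPH, was highest in kidney at 249 ± 34.8 TPM, above muscle at 202 ± 39.6 TPM (permutation test, adjusted p = 0.00026), and had its lowest mean in cerebellum at 36.9 ± 6.26 TPM. Heart and cerebellum did not differ in Me1 (permutation test, adjusted p = 0.37). Kidney, which was first for no other of the 10 genes, thus held the most Me1 transcript per length.

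The 2 acetyl-CoA carboxylases, the cytosolic Acaca and the mitochondria-bound Acacb, were both highest in muscle, with means of 55.6 and 53.0 TPM. In heart, Acacb exceeded Acaca in all 24 normoxia libraries, with a mean log2 ratio of Acaca to Acacb of -2.26 ± 0.97 (SD), whereas in lung Acaca exceeded Acacb in all 24 (1.60 ± 0.35) and in muscle the pair stood level (-0.049 ± 0.63). Fasn, the synthase itself, followed the order muscle at 420.4 ± 195 TPM, lung at 207 ± 69.0 TPM, liver at 165 ± 123 TPM, heart at 50.1 ± 64.7 TPM, kidney at 38.2 ± 19.7 TPM and cerebellum at 24.4 ± 11.1 TPM. Heart and kidney did not differ (permutation test, adjusted p = 0.24), and each other step did. The heart mean rests on a few high libraries. Its median was 21.7 TPM, against 31.9 TPM in kidney and 21.7 TPM in cerebellum. On the log2 values heart lay under kidney, by -0.48, and heart was not tested against cerebellum. Muscle libraries also held the highest sum of 6 adipocyte markers, with a mean of 4207 TPM against 6.70 TPM in liver. Pearson's r of Fasn with this sum in muscle was 0.55 in normoxia and 0.60 in IH (permutation test, adjusted p = 0.010 and 0.0037). In lung it was 0.61 and 0.34 (permutation test, adjusted p = 0.0022 and 0.13). It did not pass in liver, kidney or IH cerebellum, and was -0.65 in normoxia cerebellum. The part of fat cells in the muscle levels was not tested.

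Among the enzymes that finish the fatty acid, Elovl6, which lengthens palmitate, was highest in liver at 21.2 ± 12.4 TPM and lowest in heart at 1.52 ± 1.83 TPM. The desaturases Scd1 and Scd2, which place the double bond of oleate and palmitoleate, stood at opposite ends in liver and cerebellum. Scd1 reached 1523 ± 683 TPM in liver and 1353 ± 472 TPM in muscle, which did not differ (permutation test, adjusted p = 0.61), and had its lowest mean in cerebellum at 39.5 ± 8.73 TPM. The step from heart to cerebellum did not pass (permutation test, adjusted p = 0.91). Scd2 reached 232 ± 63.4 TPM in cerebellum and 229.6 ± 41.7 TPM in lung, again without a difference (adjusted p = 0.97), and only 1.41 ± 0.60 TPM in liver. In the other tissues both genes were higher in lung than in kidney, and higher in kidney than in heart. The log2 ratio of Scd1 to Scd2 ran from 9.55 ± 0.58 in liver to -2.53 ± 0.34 in cerebellum, where Scd2 was the higher in all 24 normoxia libraries.

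Srebf1, whose product SREBP-1 switches on the other genes, was highest in liver at 110.4 ± 43.8 TPM and lowest in heart at 13.8 ± 8.74 TPM. Thrsp, a small nuclear protein induced by thyroid hormone and carbohydrate, had 809 ± 655 TPM in liver and 439 ± 173 TPM in muscle, a step that did not pass (permutation test, adjusted p = 0.13), and had its lowest mean in lung, where the 24 libraries held 13.1 to 143 TPM with a median of 43.0 TPM. Its step from heart to lung did not pass either (permutation test, adjusted p = 0.32). Counting over the 10 genes, muscle held the highest mean of Fasn, Acaca, Acacb and Acly, liver of Scd1, Elovl6, Srebf1 and Thrsp, kidney of Me1 and cerebellum of Scd2. The plot of levels by tissue shows each library.

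**Figure D1:**
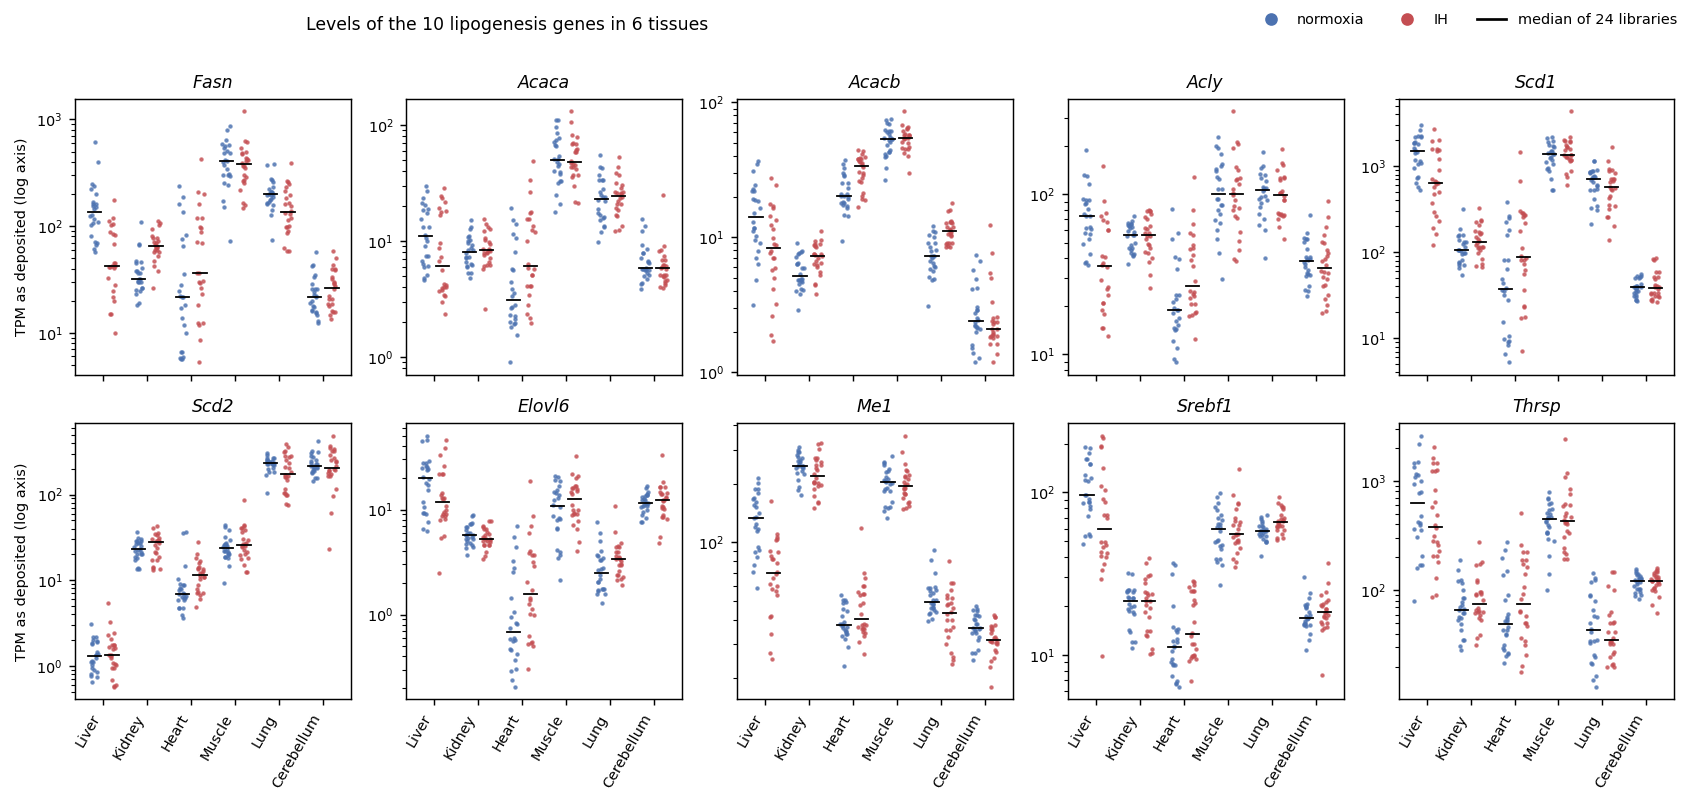
Levels of the 10 genes in each library (TPM as deposited, log axis), by tissue on the horizontal axis. Blue points are normoxia, red points are IH and black bars are medians of 24 libraries. Scd1 is highest in liver and muscle and low in cerebellum and heart, whereas Scd2 is lowest in liver, and heart libraries spread widely for Fasn, Scd1 and Elovl6.

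The main comparison asked how the 24-hour mean level of each gene differed between IH and normoxia in each tissue. In the liver, 4 of the 10 genes fell after IH, Fasn, Acly, Scd1 and Me1, and none was called higher. Among the 11334 genes tested in the liver, 2.55% were called lower and 1.1% higher, and 24.2% passed the p alone. The median log2 difference over the 10 genes was -0.55 against -0.0070 over all genes. Of the 10 log2 differences 9 were negative, the exception being Scd2 (0.17), which is hardly present in this tissue. Scaling moved the liver as a whole, since with TPM as deposited the median over all genes was -0.12 and 11.9% of the called genes were higher in IH, against 30.2% with scaled values. The same 4 genes were called lower with TPM as deposited, together with Acacb.

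Fasn had the widest liver difference. Its level in the normoxia libraries ran from 57.6 to 617 TPM with a median of 136 TPM, and in the IH libraries from 10.0 to 174 TPM with a median of 42.4 TPM. Of the 24 IH libraries, 15 lay under the lowest normoxia library and 1 above the normoxia median, and the IH mean was the lower at 8 of 8 time points. The log2 difference was -1.45 (SE 0.27, adjusted p = 0.00013), or 2.73-fold, and stayed between -1.51 and -1.37 as each time point was left out in turn. In the normoxia means the level rose from 78.1 TPM at 4:30 to 334 TPM at 13:30, and in the IH means from 31.2 to 94.3 TPM at the same 2 times.

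For Acly the normoxia liver libraries held 36.3 to 189.6 TPM with a median of 73.3 TPM, and the IH libraries 13.0 to 151 TPM with a median of 35.7 TPM. The groups overlapped in part, since 12 of 24 IH libraries lay under the lowest normoxia library, and the log2 difference was -0.86 (SE 0.19, adjusted p = 0.00076). For Me1 the libraries held 58.4 to 216 TPM with a median of 134 TPM in normoxia, and 25.2 to 163 TPM with a median of 69.8 TPM in IH. Only 1 IH library exceeded the normoxia median, and the log2 difference was -0.80 (SE 0.14, adjusted p = 7.34e-05). The suppliers of acetyl-CoA and of NADPH for the synthase thus fell with it.

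The liver desaturase Scd1 held 535 to 3041 TPM with a median of 1495 TPM in normoxia and 123 to 2722 TPM with a median of 646 TPM in IH. The groups overlapped more than for Fasn, with 9 IH libraries under the lowest normoxia library and 7 above the normoxia median, and the log2 difference was -0.95 (SE 0.24, adjusted p = 0.0036). The remaining liver genes did not pass. Acacb differed by -0.61 (SE 0.24, adjusted p = 0.053), Srebf1 by -0.49 (SE 0.21, adjusted p = 0.074), Acaca by -0.41 (SE 0.23, adjusted p = 0.20), Elovl6 by -0.38 (SE 0.22, adjusted p = 0.20) and Thrsp by -0.23 (SE 0.38, adjusted p = 0.70). Without the IH library that lacks hepatocyte markers, Acacb was called too, at -0.67 (adjusted p = 0.026), and the 4 calls were kept, at -1.51 for Fasn, -0.86 for Acly, -0.88 for Scd1 and -0.77 for Me1. That library also held 359.8 TPM of adipocyte markers in sum, against an IH median of 6.45 TPM. With these markers as a term Fasn differed by -1.48 (adjusted p = 7.37e-05). In the liver this term mainly marks that 1 library, so the part of fat cells was not tested.

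The liver libraries did not show these differences evenly over the 3 replicate numbers. Fasn differed by -2.25 (SE 0.43) among libraries numbered 1 and by -2.06 (SE 0.41) among those numbered 2, but by -0.037 (SE 0.33) among those numbered 3. Libraries numbered 3 also had the highest Acaca in both conditions, with means of 7.75, 9.47 and 22.1 TPM in normoxia and 3.77, 5.97 and 21.3 TPM in IH for numbers 1, 2 and 3. In TPM, the Fasn means of 8 libraries were 179 and 35.7 for number 1, 209 and 41.8 for number 2, and 106 and 97.7 for number 3, in normoxia and IH. Acly differed by -1.28, -1.07 and -0.23, Scd1 by -1.40, -1.28 and -0.17, Me1 by -1.07, -0.93 and -0.39, and Srebf1 by -0.77, -1.02 and 0.32, in the order of the numbers. Of the 10 genes, 7 were called among the libraries numbered 1, 5 among those numbered 2 and 0 among those numbered 3, where 1 of all genes tested was called, against 1480 and 1034. Without replicate 1 or without replicate 2, only 1 of the 10 genes was called, Me1, and without replicate 3 there were 7. Fasn was thus not called without replicate 1 or without replicate 2. Over all libraries left out, its difference lay between -2.16 and -1.05. The highest adjusted p (limma) was 0.094 for Fasn, 0.12 for Acly, 0.19 for Scd1 and 0.046 for Me1. The sum of hepatocyte markers moved in the same way, with means of 46618 TPM in normoxia and 26611 TPM in IH for number 1, 48805 and 28667 TPM for number 2, and 56118 and 51882 TPM for number 3. Their part in the result was not tested.

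**Figure D2:**
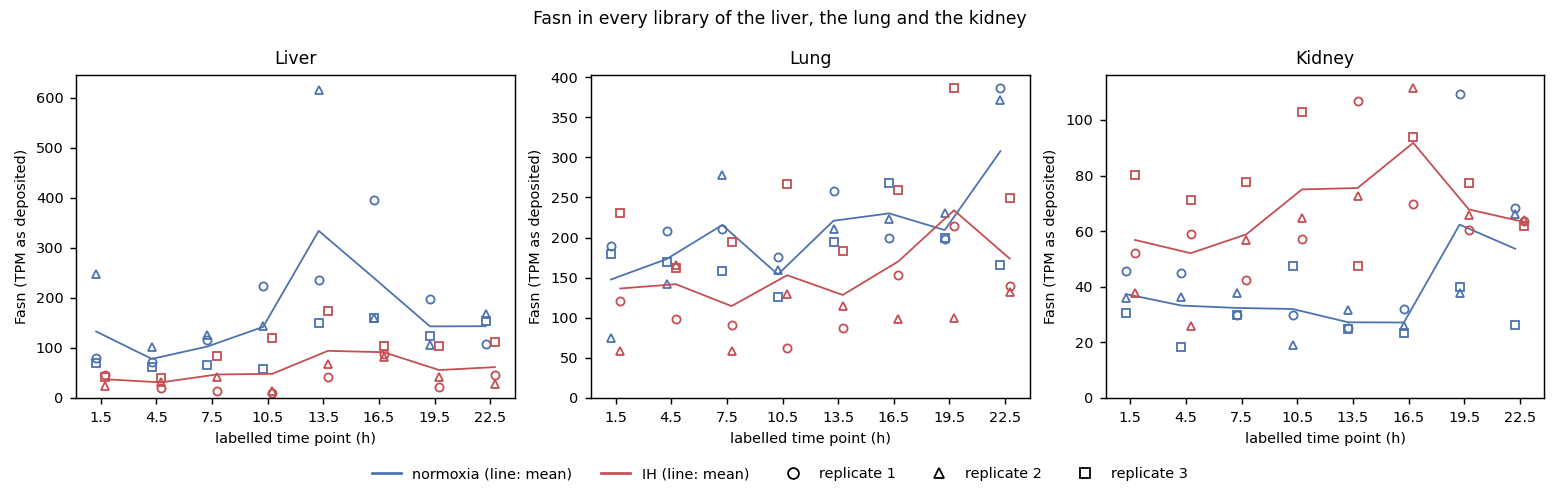
Fasn (TPM as deposited) in every library of the liver, the lung and the kidney against the labelled time point in hours. Blue is normoxia, red is IH, lines join the means of 3 libraries and symbols give the replicate number. In the liver the IH mean lies under the normoxia mean at 8 of 8 time points while the red squares of replicate 3 stay near the blue ones, and in the kidney the red line lies above the blue one throughout.

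In the lung, 3 of the 10 genes fell after IH, Fasn, Scd2 and Me1, and 0 rose. Among the 15426 genes tested there 4.39% were called lower and 9.09% higher, and 2 of the 10 log2 differences were positive, with a median of -0.36. The share of genes with an adjusted p of at most 0.05, whatever the fold, was 70.4% over all genes and 6 of 10 here, so that passing the p alone was usual in this tissue. Scaling matters most in the lung. With TPM as deposited the median log2 difference of all genes was 0.21, against -0.076 with scaled TPM, and 98.0% of the called genes were higher in IH, against 67.4%. On the deposited scale 1 of the 10 genes was called, Acacb, which was higher, and Fasn, Scd2 and Me1 kept a negative sign with differences of -0.50, -0.33 and -0.32.

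The lung level of Fasn was 74.4 to 386 TPM with a median of 199 TPM in normoxia and 58.0 to 387 TPM with a median of 136 TPM in IH. The ranges overlapped almost fully, 6 IH libraries lay above the normoxia median, and on scaled TPM the log2 difference was -0.80 (SE 0.17, adjusted p = 5.65e-05). Scd2, the main desaturase of the lung beside Scd1, held 105 to 302 TPM with a median of 232 TPM in normoxia and 76.0 to 392 TPM with a median of 176 TPM in IH, and differed by -0.64 (SE 0.16, adjusted p = 0.00038). Me1 held 39.4 to 91.7 TPM with a median of 49.7 TPM in normoxia and 23.8 to 80.1 TPM with a median of 43.4 TPM in IH. The IH libraries under the lowest normoxia library numbered 9, and the difference was -0.62 (SE 0.11, adjusted p = 2.43e-06).

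The p, but not the fold, was passed by 3 further lung genes. Scd1 differed by -0.55 (SE 0.20, adjusted p = 0.016), Acly by -0.32 (SE 0.12, adjusted p = 0.018) and Acacb by 0.32 (SE 0.091, adjusted p = 0.0016). Acacb went against the rest. In TPM as deposited all 24 IH libraries lay above the normoxia median of 7.26 TPM, with an IH median of 11.1 TPM. Its mean was the higher at 8 of 8 time points with and without scaling. The rise was uneven over the replicate numbers, at -0.14, 0.30 and 0.81 among libraries numbered 1, 2 and 3. As libraries were left out, the difference fell as low as 0.079. The log2 ratio of Acaca to Acacb in the lung was 1.60 ± 0.35 in normoxia and 1.05 ± 0.42 in IH (SD, n = 24). Acaca, Elovl6, Srebf1 and Thrsp did not pass, at -0.23, 0.057, -0.093 and -0.40, and Acaca and Srebf1 turned positive on the deposited scale (0.068 and 0.21).

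In the lung, too, the replicate numbers went apart. Fasn differed by -1.18 (SE 0.22), -1.30 (SE 0.28) and 0.060 (SE 0.15) among libraries numbered 1, 2 and 3, and Scd2 by -1.03, -0.98 and 0.10. Among libraries numbered 3, 9 of the 10 genes had a positive difference and 3 were called, Acaca (0.67, SE 0.15), Acacb (0.81, SE 0.11) and Elovl6 (0.71, SE 0.22), all higher. Over all genes tested in the lung, 3687, 3084 and 1987 were called among libraries numbered 1, 2 and 3. Without replicate 1, 2 or 3 there were 1, 0 and 6 called genes. The sum of alveolar type 2 cell markers, the surfactant-making cells of the lung, went from 46913 to 29550 TPM for number 1, from 42236 to 31447 TPM for number 2 and from 45896 to 43589 TPM for number 3. With the number of detected genes as a term in the model, Fasn, Scd1 and Scd2 turned positive in the lung, at 0.32 (adjusted p = 0.12), 0.66 (adjusted p = 0.017) and 0.52 (adjusted p = 0.00081), and Me1 differed by -0.064 (adjusted p = 0.72). The part of the cell markers and of the detected genes in the lung differences was not tested beyond this.

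**Figure D3:**
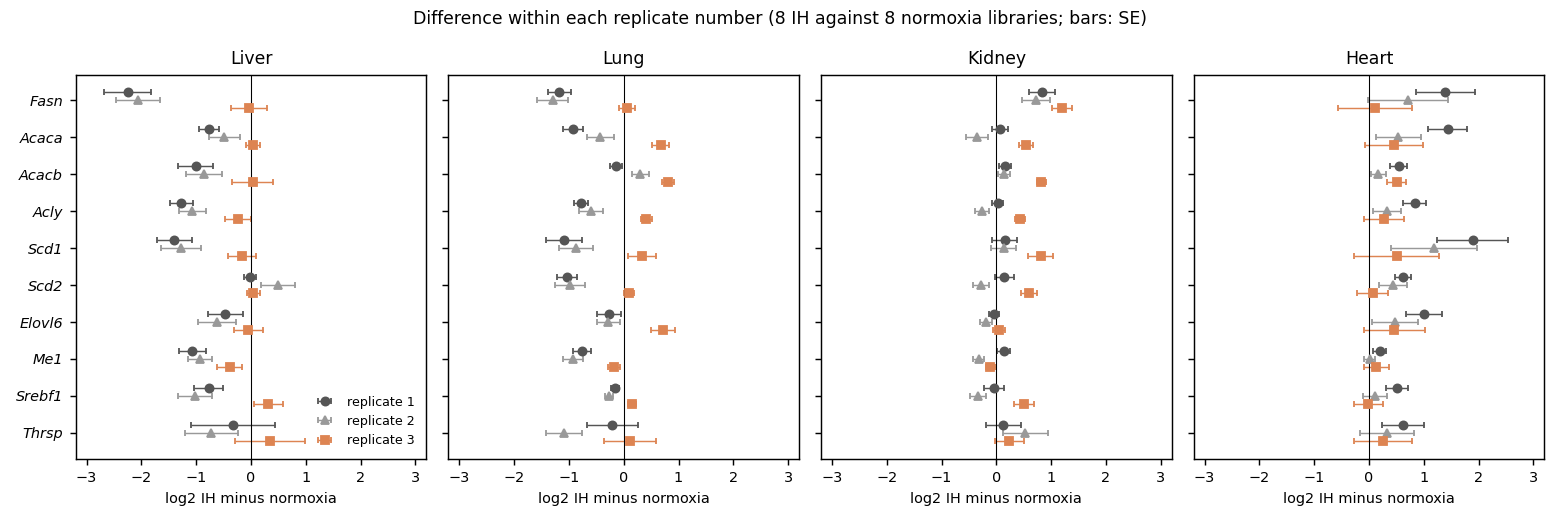
Log2 difference between IH and normoxia of each gene within each replicate number, in the liver, lung, kidney and heart (8 IH against 8 normoxia libraries, bars give the SE). In liver and lung the Fasn points of replicates 1 and 2 lie between -2.25 and -1.18 and those of replicate 3 at -0.037 and 0.060, and in the kidney all 3 Fasn points lie above 0.

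In the kidney, Fasn was the only one of the 10 genes to be called, and it was higher after IH. Of the 12902 genes tested, 0.411% were called higher and 0.372% lower, while 19.8% passed the p alone, against 2 of the 10 here. The median over the 10 genes was 0.12 against -0.0072 over all genes. The Fasn level ran from 18.4 to 109 TPM with a median of 31.9 TPM in normoxia and from 26.0 to 112 TPM with a median of 64.5 TPM in IH. The ranges overlapped at the top, where 2 normoxia time points were high, yet 23 of 24 IH libraries lay above the normoxia median and the IH mean was the higher at 8 of 8 time points. The log2 difference was 0.92 (SE 0.14, adjusted p = 5.52e-06) and was 0.83 (SE 0.24, adjusted p = 0.10), 0.73 (SE 0.25, adjusted p = 0.050) and 1.20 (SE 0.19, adjusted p = 0.00028) among libraries numbered 1, 2 and 3.

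The kidney difference of Fasn was not the same size over the day. At 16:30 the IH mean was 91.8 ± 21.0 TPM and the normoxia mean 27.1 ± 4.48 TPM (SD, n = 3), at 13:30 they were 75.5 ± 29.8 and 27.2 ± 3.95 TPM, and at 19:30 they were 67.8 ± 8.70 and 62.3 ± 40.6 TPM. The largest normoxia means were at 19:30 and at 22:30 (53.7 ± 23.7 TPM), and the other 6 lay between 27.1 and 37.4 TPM. A 24-hour cosine fit peaked at 22.8 hours in normoxia and at 15.5 hours in IH, but neither fit passed (adjusted p = 0.054 and 0.25). The limma test of a changed rhythm over the 48 libraries gave an adjusted p = 0.98.

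No other lipogenesis gene of the kidney reached 1.5-fold. Acacb, at 5.14 TPM in the median normoxia and 7.30 TPM in the median IH library, differed by 0.37 (SE 0.073, adjusted p = 0.00025), with 0.16, 0.13 and 0.82 among libraries numbered 1, 2 and 3, and without replicate 3 it did not pass (0.14, adjusted p = 0.18). Scd1 differed by 0.36 (SE 0.14, adjusted p = 0.066) and Thrsp by 0.30 (SE 0.20, adjusted p = 0.31). Acly, Acaca, Scd2, Elovl6, Me1 and Srebf1 lay between -0.10 and 0.16. The kidney also held adipocyte markers, 371 ± 113 TPM in normoxia and 486 ± 157 TPM in IH. With this sum as a term the Fasn difference was 0.82 (adjusted p = 0.00013), and with the number of detected genes as a term it was 0.76 (adjusted p = 0.00016). The sum of kidney tubule markers had means of 50410 TPM in normoxia and 44209 TPM in IH, and its part was not tested.

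In the heart, all 10 differences were positive, with a median of 0.44 against 0.037 over all genes, and 2 genes rose, Scd1 and Acaca, beside 1.1% of the 12779 genes tested called higher and 1.85% lower. With TPM as deposited the median over all genes was 0.15 and 66.8% of the called genes were higher, against 37.4% with scaled values, and 4 of the 10 were called, Acly and Elovl6 in addition. Scd1 held 5.24 to 385 TPM with a median of 37.2 TPM in normoxia and 7.13 to 1476 TPM with a median of 89.0 TPM in IH, a log2 difference of 1.19 (SE 0.49, adjusted p = 0.042). Acaca held 0.90 to 19.4 TPM with a median of 3.09 TPM in normoxia and 1.97 to 49.2 TPM with a median of 6.10 TPM in IH, a log2 difference of 0.81 (SE 0.29, adjusted p = 0.019). For both genes the groups overlapped over nearly the whole normoxia range, which spans more than a factor of 10 within the 24 normoxia hearts. Acacb, Acly and Scd2 passed the p but not the fold (0.41, 0.47 and 0.38), so that 5 of the 10 passed the p, beside 45.2% of all genes, and Fasn did not pass (0.74, SE 0.44, adjusted p = 0.17).

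Fasn levels in the heart followed adipocyte markers. Their sum had a mean of 290.2 ± 351 TPM in normoxia, with a range of 22.1 to 1397 TPM, and of 486 ± 389 TPM in IH, with a range of 22.2 to 1207 TPM. Over the 24 libraries of a condition, Fasn followed this sum with Pearson's r = 0.93 and Spearman's rho = 0.96 in normoxia and r = 0.91 and rho = 0.94 in IH (permutation test, p = 1e-05 for each, the smallest that 100000 resamples can give, adjusted p = 3.53e-05 for r and 3.75e-05 for rho over 120 relations), and without the 2 libraries farthest from the median r was 0.92 in both. Within the replicate numbers r lay between 0.80 and 0.97. With the sum as a term in the model none of the 10 genes was called, Scd1 differing by 0.15 (adjusted p = 0.59) and Acaca by 0.24 (adjusted p = 0.23), while Acacb differed by 0.39 (adjusted p = 0.0019) and Fasn, Srebf1 and Thrsp turned negative (-0.20, -0.077 and -0.23, none passing). With the number of detected genes as a term 0 were called as well, and Acacb differed by -0.096 (adjusted p = 0.75). Leaving out replicate 1, or the libraries of 10:30 or of 13:30, also left 0 called genes, and leaving out replicate 2, or those of 16:30 or 22:30, left 1. The part of fat cells and of the detected genes in the heart differences was not tested beyond this.

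In muscle and cerebellum none of the 10 genes was called by limma or passed its p. In muscle 0.25% of 12824 genes were called higher and 0.125% lower and 10.4% passed the p, and in cerebellum 1.48% of 14892 genes were called higher, 1.16% lower and 15% passed the p. At an unadjusted p under 0.05 there were 0 genes in muscle, beside 23.9% of all genes, and 1 in cerebellum, Me1, beside 30.3%. It held a median of 36.3 TPM in normoxia and 31.6 TPM in IH, a log2 difference of -0.19 (SE 0.071, limma adjusted p = 0.056). In muscle the differences lay between -0.14 for Fasn (SE 0.20) and 0.22 for Elovl6 (SE 0.21). Muscle had the highest Fasn levels of all tissues, 72.5 to 867 TPM with a median of 404 TPM in normoxia and 146 to 1194 TPM with a median of 381 TPM in IH. In cerebellum Fasn differed by 0.20 (SE 0.14, adjusted p = 0.34) and Scd2 by -0.19 (SE 0.14, adjusted p = 0.40). The IH cerebellum library with heart markers held 23.1 TPM of Scd2, the lowest of the IH libraries, against an IH median of 205 TPM. Without it Scd2 differed by -0.096 (adjusted p = 0.57) and Fasn by 0.15 (adjusted p = 0.43), and Me1 passed the p but not the fold, at -0.22 (adjusted p = 0.019).

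**Figure D4:**
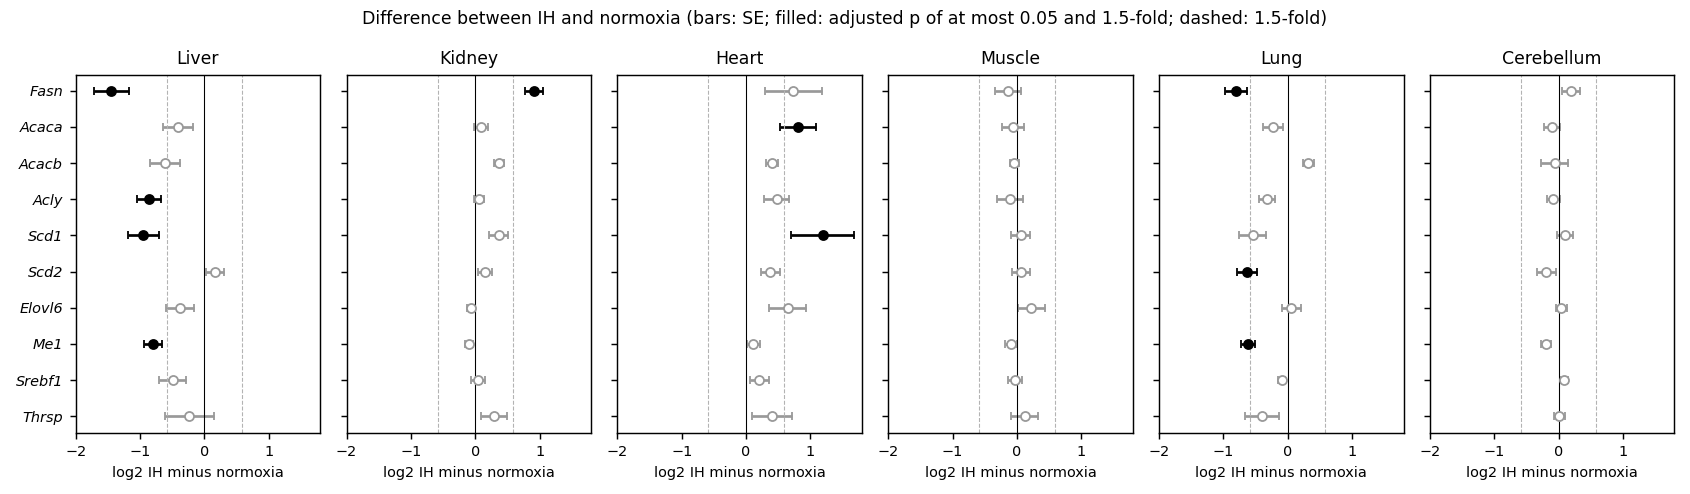
Log2 difference between IH and normoxia (scaled TPM with 0.5 added) of the 10 genes in the 6 tissues. Bars give the SE, filled points were called and dashed lines mark 1.5-fold. Fasn has filled points on both sides of 0, at -1.45 in liver, -0.80 in lung and 0.92 in kidney, and so does Scd1, at -0.95 in liver and 1.19 in heart.

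Whether a gene's difference depended on the tissue was tested in 1 model over the 6 tissues (limma). Libraries of different tissues were taken as independent, since the labels do not tell which share a mouse. The p-values of this model rest on that. Of the 10 genes 9 passed, all but Thrsp (adjusted p = 0.28), but so did 82.2% of the 15551 genes tested, so the share is close to that of genes in general. Kidney was then set against each other tissue, a choice made because earlier results of these data showed Fasn higher there after IH. The difference of Fasn in the kidney exceeded that in the liver by 2.37 on the log2 scale (SE 0.36, adjusted p = 2.04e-08) and that in the lung by 1.72 (SE 0.36, adjusted p = 2.34e-05). In this model it could not be told from that in heart (0.18, SE 0.36, adjusted p = 0.76), cerebellum (0.72, SE 0.36, adjusted p = 0.16) or muscle (1.06, SE 0.36, adjusted p = 0.082). The model took 1 spread per gene for all 6 tissues, so each Fasn contrast had the same SE. With each tissue fitted alone, the SE of the Fasn difference was 0.14 in kidney and in cerebellum, 0.20 in muscle and 0.44 in heart. Contrasts with a spread for each tissue were not tested. Between kidney and liver 6 of the 10 genes differed, Fasn, Scd1, Acacb, Acly, Me1 and Srebf1, each with the higher value in kidney, beside 24.6% of all genes, and between kidney and lung 4 did, beside 49% of all genes. Between kidney and heart 2 did, Acaca and Elovl6, both with the higher value in heart (beside 23.4%), and 0 of the 10 passed by limma between kidney and cerebellum (beside 17.2%) or muscle (beside 2.95%). With the number of detected genes as a term the gap between kidney and lung shrank to 0.44, and without replicate 3 it grew to 2.02.

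The sampling over the day allowed a 24-hour cosine fit to each gene in each condition. In the liver, 2 of the 10 genes were rhythmic in normoxia (limma, adjusted p of at most 0.05, beside 5.73% of all genes) and 1 in IH (beside 7.53%). Thrsp rose from 216 ± 141 TPM at 1:30 to 1789 ± 693 TPM at 13:30 in normoxia, and from 168 ± 101 TPM at 4:30 to 1567 ± 408 TPM at 16:30 in IH (SD, n = 3). The fitted peak stood at 15.7 hours (SE 0.65) in normoxia and 14.6 hours (SE 0.65) in IH on the labelled scale, with peak-to-trough ratios of 7.86 and 7.71 (adjusted p = 0.00019 and 0.00022). Elovl6 had its highest normoxia mean at 13:30, 40.9 ± 11.9 TPM, and its lowest at 1:30, 11.5 ± 5.79 TPM, with a fitted peak at 14.4 hours (SE 0.77, adjusted p = 0.0024). In IH its means lay between 9.42 and 22.6 TPM and the fit did not pass (adjusted p = 0.18), and the test of the difference between the rhythms gave an adjusted p = 1 (limma), so that no difference in rhythm was shown. Without the IH library that lacks hepatocyte markers, Elovl6 passed in IH too (peak at 14.5 hours, SE 0.90, adjusted p = 0.011), so that 2 genes were rhythmic in each condition. For scale, the clock-controlled gene Dbp peaked in the liver at 10.2 hours in normoxia and the clock gene Arntl at 22.1 hours.

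In the kidney, Scd2, Srebf1 and Thrsp were rhythmic in both conditions (beside 11.2% of all genes in normoxia and 10% in IH). Srebf1 had peak-to-trough ratios of 1.62 in normoxia and 1.89 in IH, and its IH peak stood at 18.7 hours (SE 0.70). Scd2 peaked at 18.2 hours (SE 0.86) and 18.8 hours (SE 0.67), with ratios of 1.59 and 1.81. The distance between the peaks of Srebf1 and Scd2 was not tested, and no changed rhythm was called for either. Kidney Thrsp peaked at 18.3 hours in normoxia and 15.8 hours in IH, with a ratio of 2.60 in both. In muscle, Acacb passed in both conditions (adjusted p = 0.044 and 0.042, ratios of 1.33 and 1.31), beside 5.7% and 12% of all genes, and Thrsp passed in IH (adjusted p = 0.0031), where its highest mean was 1482 ± 833 TPM at 16:30.

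None of the 10 genes was rhythmic by limma in heart (beside 1.57% of all genes in normoxia and 2.28% in IH), lung (4.09% and 8.56%) or cerebellum (0.00672% and 0.0403%). At an unadjusted p under 0.05 there were 0 and 0 genes in heart (beside 9.24% and 9.79% of all genes), 1 and 2 in lung (16.4% and 21.4%) and 2 and 1 in cerebellum (15.7% and 6.07%), in normoxia and IH. Without the IH cerebellum library that holds heart markers, Acaca passed in normoxia cerebellum (adjusted p = 0.040). The JTK rank test and the cosine fit on linear TPM also called 0 of the 10 in each, beside 0.311% and 1.08% of all genes in heart, 2.83% and 4.42% in lung and 0% and 0.00468% in cerebellum by JTK, and 0.285% and 1.21%, 2.99% and 4.46%, and 0% and 0.00468% on linear TPM. A changed rhythm was called by limma for 0 of the 10 genes in every tissue, as it was for 0 of all genes. At an unadjusted p under 0.05 there were 2 genes in kidney, Fasn and Scd1 (beside 2.54% of all genes), 1 in cerebellum, Acaca (4.59%), and 0 in the other 4 tissues (0.563% to 4.52%). The JTK rank test called 2 liver genes in normoxia (beside 8.78% of all genes) and 1 in IH (3.72%), 1 and 0 in kidney (5.96% and 0.925%), and 0 and 0 in muscle (0.896% and 2.26%). The fit on linear TPM called 2 and 1 in liver (8.56% and 2.86%), 3 and 0 in kidney (8.49% and 1.19%), and 0 and 0 in muscle (0.87% and 2.28%). Leaving out replicate 1 left 0 rhythmic genes in normoxia liver and kidney.

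**Figure D5:**
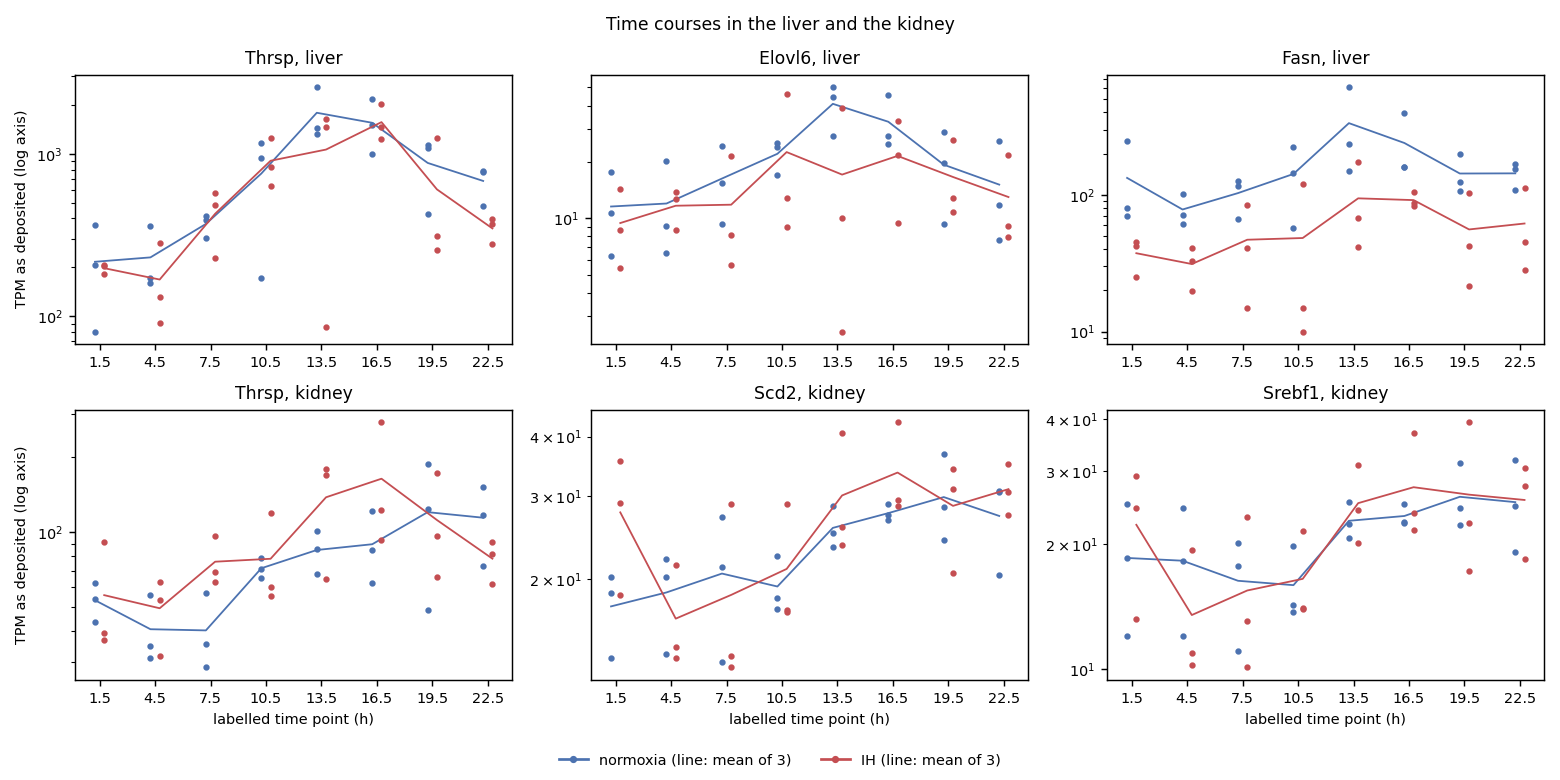
Time courses of Thrsp, Elovl6 and Fasn in the liver and of Thrsp, Scd2 and Srebf1 in the kidney (TPM as deposited, log axis) against the labelled time point in hours. Points are libraries and lines join means of 3, with normoxia in blue and IH in red. Liver Thrsp climbs from 216 to 1789 TPM in normoxia, and its low IH point at 13:30, 86.4 TPM, is the library that lacks hepatocyte markers.

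The 44 other genes of the pathway were taken from 4 lists: the supply of citrate and NADPH, the control by SREBP and ChREBP, elongation and desaturation, and glycerolipid synthesis. In the liver 7 of the 41 genes tested fell and 0 rose, beside 2.55% of all genes called lower and 1.1% called higher, with a median of -0.29 against -0.0070 over all genes. The widest differences were in Elovl5, an elongase of polyunsaturated fatty acids (-0.95, SE 0.20, adjusted p = 0.00051), Tkt and Pgd, enzymes of the pentose phosphate pathway (-0.74 and -0.68, adjusted p = 8.79e-07 and 1.32e-06), Acsl5, an acyl-CoA synthetase (-0.68, adjusted p = 0.0036), and the desaturase Fads2 (-0.66, adjusted p = 0.0071). By list, 3 of 8 supply genes, 3 of 9 elongation and desaturation genes, 1 of 10 glycerolipid genes and 0 of 14 control genes fell. Without the IH library that lacks hepatocyte markers, Acsl5 and Fads2 came under 1.5-fold, at -0.56 and -0.53. Tkt differed by -1.19, -0.88 and -0.14 and Elovl5 by -1.28, -1.25 and -0.32 among libraries numbered 1, 2 and 3, the same order as Fasn.

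In the lung 5 of 41 pathway genes fell and 2 rose, beside 4.39% of all genes called lower and 9.09% called higher, with a median of -0.22 against -0.076 over all genes. The 2 that rose belong to the control list, on which 2 of 14 rose and 1 fell. Mlxipl, which encodes ChREBP, had mean levels of 2.37 TPM in normoxia and 6.85 TPM in IH (log2 difference 1.08, SE 0.14, adjusted p = 5.34e-09) and was higher within each replicate number (1.38, 0.79 and 1.07). Pnpla3, a lipid droplet protein and target of SREBP-1c, differed by 0.72 (SE 0.24, adjusted p = 0.0080). Tkt fell by 0.74 on the log2 scale, Mid1ip1, the partner of Thrsp that activates acetyl-CoA carboxylase, by 0.62, and the cytosolic malate dehydrogenase Mdh1 by 0.61. On the deposited scale Tkt differed by -0.44, under 1.5-fold, and Mlxipl by 1.35. With detected genes as a term Mlxipl differed by 0.63 (adjusted p = 0.010), while Mid1ip1 and Mdh1 turned positive (0.30 and 0.15). In kidney, heart, muscle and cerebellum 0 of 41, 40, 39 and 42 tested pathway genes were called by limma, with 12, 24, 8 and 10 at an unadjusted p under 0.05. Over all genes 33.0%, 52.0%, 23.9% and 30.3% had such a p in these tissues, so the pathway counts were near the background.

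How far the genes moved together from library to library was measured by the correlation of each with Fasn over the 24 libraries of a condition (scaled log2 TPM, permutation test, adjusted over a family of 120 that includes the adipocyte sum). Of 108 relations 81 passed. The share of all genes that would pass was not computed, so this count cannot be set against genes in general. In the heart the median r over the 9 genes was 0.86 in normoxia and 0.93 in IH, in the lung 0.69 and 0.88, in muscle 0.78 and 0.70, in the kidney 0.64 and 0.57, in the liver 0.41 and 0.49, and in the cerebellum -0.043 and 0.37. Libraries share their time point and scaling factor, which the r values include. Within a replicate number (8 libraries) r in normoxia liver was mostly higher. Acaca had -0.091 over the 24 libraries, but 0.95, 0.46 and 0.52 within numbers 1, 2 and 3. Elovl6 had 0.43, and 0.94, 0.74 and 0.82 within them. Scd2, Me1 and Thrsp were not higher within every number. In IH liver these values were mixed, with 0.49 for Elovl6 and 0.27, -0.24 and 0.90 within the numbers. Elovl6 followed Fasn closely in muscle (r = 0.95, rho = 0.95) and heart (r = 0.96, rho = 0.96) in normoxia, whereas Acacb did not in these 2 tissues (r = 0.24 and -0.094, rho = 0.30 and -0.024). In normoxia liver Thrsp had the highest r (0.83, rho = 0.84). In cerebellum Thrsp ran against Fasn on scaled TPM, with r = -0.50 in normoxia and -0.64 in IH (rho = -0.44 and -0.81), but on the deposited scale r was 0.062 and -0.49. Leaving out a replicate number left 63 to 72 relations that passed.

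Over the 48 liver libraries of both conditions, the 4 genes whose pattern was most like that of Fasn by Pearson's r, among 7188 genes compared, were Mybbp1a (0.85), Gtf2f1 (0.83), Kat2a (0.82) and Gpi1 (0.79). Over the 48 kidney libraries, among 9142 genes, the first 5 were Flna (0.75), Ehd2 (0.75), Igip (0.73), Hspg2 (0.73) and Phospho1 (0.71). None of the genes named stood in both lists. Gpi1, the glucose phosphate isomerase of glycolysis, had mean levels of 118 TPM in normoxia and 69.7 TPM in IH in the liver.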

How the data were processed

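RNA-seq libraries of 6 mouse tissues were analysed from the deposited tables of TPM values (transcripts scaled to a common library total). According to the study's methods and the submitters' processing notes, poly(A) RNA was sequenced, reads were demultiplexed with bcl2fastq, checked with FastQC 0.11.3 and quantified with kallisto, with DESeq2 and mm10 also named, and the authors deposited TPM per gene and library, not pooled. The tables hold no counts, so no count test could be run and depth is unknown, a change from the authors' DESeq2 test. TPM were divided by median-of-ratios factors computed within each tissue, 0.5 was added and log2 taken. Every gene averaging 1 TPM or more over the 48 libraries of a tissue was tested with limma 3.58.1 (R 4.3.3) with an intensity trend and Benjamini-Hochberg adjustment, and called at an adjusted p of at most 0.05 and 1.5-fold. All 10 genes passed this filter in every tissue. Rhythms were tested by an F test of 24-hour cosine terms, their change by the contrast of these terms, and tissue dependence by an interaction of tissue and treatment. For the interaction, libraries of different tissues were taken as independent and shared 1 spread per gene. The steps between tissues and the correlations were tested by two-sided permutation with 100000 resamples (Python 3.11.15, scipy 1.17.1). The scripts were tested on simulated data.

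The members and the pathway and marker lists were chosen with earlier results of these data known. The text names every member and the pathway genes with the widest called differences, at most 5 per tissue. One gene of the list most like Fasn in the liver is not reported here. Groups and replicate numbers came from the labels. Alternatives were TPM as deposited, other pseudocounts (0.1 and 1) and filters (a mean of at least 5 TPM, or none), terms for time point, replicate number, detected genes or adipocyte markers, blocks of libraries with the same time point and number, and leaving out replicate numbers, time points and the libraries that stood apart. The contrasts of kidney with each other tissue were chosen because earlier results of these data had shown higher Fasn in kidney after IH. For Fasn they are therefore no independent test. The libraries that stood apart were picked from their own values. Of the other alternatives, only the correlations that leave out a replicate number were added after the plan was made.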

Additional observations from a re-analysis of the deposited data

Results flagged for a closer look

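The response to IH differed between the 6 tissues for 9 of the 10 genes by the interaction test (limma, Benjamini-Hochberg adjustment over 15551 genes). This test took libraries of different tissues as independent, though some may come from the same mouse. The adjusted p was 3.36e-10 for Fasn, 9.21e-10 for Me1, 1.84e-06 for Scd1, 2.96e-06 for Acly, 1.46e-05 for Acacb, 4.26e-05 for Scd2, 0.00072 for Acaca, 0.0064 for Srebf1 and 0.0099 for Elovl6. Thrsp did not pass (adjusted p = 0.28). Fasn combined the widest span of effects, from -1.45 in liver to 0.92 in kidney, and 82.2% of all genes tested passed as well. With detected genes as a term Acaca (adjusted p = 0.067) and Elovl6 (adjusted p = 0.058) did not pass either. Without replicate 1 the test passed for 4 of the 10 genes, Fasn, Me1, Acacb and Scd1.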

How the results depend on the processing

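The limits that weigh most are the replicate numbers and, in the lung, the scaling. Leaving out replicate numbers, time points or the libraries that stood apart gave 1 to 7 called genes in liver, 0 to 6 in lung, 0 to 3 in heart, and 1 in each case in kidney. In heart 4 genes were called with TPM as deposited, 1 with no filter on low values, and 0 with a term for adipocyte markers or for detected genes. In lung 1 was called with TPM as deposited. With detected genes as a term, the lung differences of Fasn (0.32), Scd1 (0.66), Scd2 (0.52), Mid1ip1 (0.30) and Mdh1 (0.15) turned positive. In each of these cases the cause was not tested.

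For rhythmic genes, leaving out libraries gave 0 to 2 in liver for each condition, 0 to 6 in normoxia and 1 to 3 in IH kidney, 0 to 1 in normoxia and 0 to 2 in IH muscle, and 0 to 1 in normoxia cerebellum. In IH liver there were 3 with the adipocyte term and 2 with the replicate number as a term. In kidney there was 1 in normoxia with TPM as deposited and 1 with the JTK rank test, and 0 in IH with JTK or on linear TPM. In muscle there were 0 in normoxia with TPM as deposited, detected genes as a term, no filter, JTK or linear TPM, and in IH there was 1 with TPM as deposited or no filter and 0 with JTK or linear TPM. In lung there was 1 in normoxia and 2 in IH with detected genes as a term, and 1 in IH with the adipocyte term. The tissue interaction held for 4 to 9 genes with libraries left out, and for 7 with detected genes as a term, where Acaca (adjusted p = 0.067) and Elovl6 (adjusted p = 0.058) did not pass by limma.

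The labels do not say that same-numbered libraries pair, and in no tissue were the deviations correlated above 0.1 in every pair of a normoxia and an IH library with the same time point and number. In liver they were in 16 of 24 pairs, with a median r of 0.22 against -0.12 for other numbers, and 14 of 24 normoxia libraries correlated best with their own number. In muscle both counts were 12, and in the other tissues 5 to 8 pairs and 5 to 9 libraries did so. With a replicate block for each pair, 5 genes were called in liver, 3 in heart, 3 in lung and 1 in kidney, and the interaction held for 9. A rhythm within 1 condition cannot be fitted with these blocks or with time points as a term, since both absorb it. Of 385 counts of genes under the other settings, 338 stayed within 1.5 times their value in the report, 193 of these being counts of genes that are 0 there, while 36 were lower and 11 higher. Depth limits cannot be given without counts.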
